A study of Mus musculus with 10 samples.

Results

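Immediate early genes are the genes that a neuron switches on within minutes of activity. The set described here holds 40 of them together with slower activity-induced genes, chosen by name, with earlier results of these data known. All 40 symbols matched 1 row each among the 18453 gene rows of the count tables, and all 40 passed the filter on low counts. The tables come from RNA-seq of 10 libraries of mouse hippocampal CA3, the field whose pyramidal neurons receive the mossy fibres of the dentate gyrus. The mice, all C57BL/6J, had adeno-associated virus (AAV) injected into CA3 of both hemispheres by stereotaxic surgery. The virus carried a scrambled short hairpin in 5 libraries, titled AAV-shRNA(scramble), and a hairpin against Mef2c in the other 5, titled AAV-shRNA(mef2c), which are called scramble and knockdown below. The sample tags say male, while the injection protocol mentions both sexes. No library came from uninjected tissue. The sources used here do not give age, the interval after injection, the promoter that drives the hairpin, or what the mice did before the tissue was taken. Because the labels tie no library to an animal, p-values measure only the spread between these libraries, which may be technical.

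Library totals lay between 14701928 and 17798090 counts. Levels are given as CPM, counts scaled to each library's effective size. Mef2c itself stood at 205 ± 60.7 CPM (SD, n = 5) in scramble and 162 ± 71.9 CPM (SD, n = 5) in knockdown libraries, a log2 fold change of -0.34 (SE 0.30, edgeR adjusted p = 0.489). Mef2c passed with a score of cortical neuron markers as a covariate (-0.31, edgeR adjusted p = 0.0213) and without scramble library 4 and the library labelled knockdown 5 together (-0.45, edgeR adjusted p = 0.0274). Without either of those 2 alone it did not pass, at -0.14 without scramble library 4 and -0.64 without the library labelled knockdown 5 (edgeR adjusted p = 0.799 and 0.0877). It had 0.20 with a microglia marker score as a covariate (edgeR adjusted p = 0.820) and -0.11 with the offsets for length and GC (edgeR adjusted p = 0.909). The library labelled knockdown 5 held 286 CPM of Mef2c, second only to scramble library 4 with 312 CPM, so its level goes against its label. The 6 markers of CA3 pyramidal neurons, among them the kainate receptor gene Grik4, were detected in every library. Their summed level was 268 to 311 CPM in scramble and 241 to 328 CPM in knockdown libraries. The 4 markers of CA1 pyramidal neurons summed to 587 to 650 CPM in scramble and 518 to 622 CPM in knockdown libraries. Sums over different genes do not measure shares of cells. The 5 choroid plexus markers ran from 68.0 to 1967 CPM in sum in scramble and from 45.6 to 2744 CPM in knockdown libraries.

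Synaptic calcium entry activates kinases that phosphorylate transcription factors already bound at the promoters of these genes, so that their transcription needs no new protein. The first products are mostly transcription factors of the AP-1, EGR and NR4A families together with Npas4, and they in turn drive slower genes whose products act at synapses, in secretory granules or as brakes on the same kinases. In the hippocampus, Fos, Egr1 and Arc serve as markers of recently active neurons, and members of the MEF2 family are among the factors that act on activity-regulated promoters.

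Promoter sequences are shown for 5 standard activity markers, because cAMP response elements are the best known calcium-responsive sites in genes of this kind, and for 2 members with a MEF2 site, because the hairpin targets a MEF2 factor. RefSeq starts (GRCm38.p6) were at hand for 31 of the 40 genes. The entries missing from the table are Arc, Crem, Dusp4, Egr1, Egr3, Ier2, Klf10, Nptx2 and Vgf. Each run below holds the 250 bases before the start, read 5′ to 3′ on the gene's strand. In the first 5, capitals mark the half-site TGACG or its reverse complement CGTCA. They are Fos (chr12:85473640-85473889, plus strand), Fosb (chr7:19310046-19310295, minus strand), Junb (chr8:84978749-84978998, minus strand), Npas4 (chr19:4989972-4990221, minus strand) and Nr4a1 (chr15:101266596-101266845, plus strand).
Fos: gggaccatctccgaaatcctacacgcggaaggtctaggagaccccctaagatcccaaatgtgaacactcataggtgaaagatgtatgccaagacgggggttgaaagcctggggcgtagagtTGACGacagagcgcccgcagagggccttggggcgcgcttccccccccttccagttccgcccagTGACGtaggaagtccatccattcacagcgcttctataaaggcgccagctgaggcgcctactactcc
Fosb: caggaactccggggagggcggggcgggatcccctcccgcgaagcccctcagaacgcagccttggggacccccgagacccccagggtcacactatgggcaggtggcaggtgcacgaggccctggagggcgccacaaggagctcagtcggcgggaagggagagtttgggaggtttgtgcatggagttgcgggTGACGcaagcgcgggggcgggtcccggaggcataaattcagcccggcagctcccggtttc
Junb: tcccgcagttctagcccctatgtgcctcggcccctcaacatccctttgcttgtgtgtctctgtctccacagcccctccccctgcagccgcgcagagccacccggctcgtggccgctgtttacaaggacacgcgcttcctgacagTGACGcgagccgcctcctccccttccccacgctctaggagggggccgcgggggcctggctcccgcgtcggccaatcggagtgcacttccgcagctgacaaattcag
Npas4: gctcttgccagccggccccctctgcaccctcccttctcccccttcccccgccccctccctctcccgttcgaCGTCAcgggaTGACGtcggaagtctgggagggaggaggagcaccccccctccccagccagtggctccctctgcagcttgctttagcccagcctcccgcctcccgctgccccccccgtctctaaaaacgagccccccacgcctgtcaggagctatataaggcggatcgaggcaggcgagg
Nr4a1: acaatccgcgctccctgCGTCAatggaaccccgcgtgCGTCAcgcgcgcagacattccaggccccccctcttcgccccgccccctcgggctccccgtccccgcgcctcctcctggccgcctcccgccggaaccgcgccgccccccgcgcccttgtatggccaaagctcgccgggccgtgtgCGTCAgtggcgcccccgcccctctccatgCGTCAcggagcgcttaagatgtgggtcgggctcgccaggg
The next 2 are Jun (chr4:95052223-95052472, minus strand) and Nr4a2 (chr2:57124004-57124253, minus strand), and capitals mark the MEF2 site.
Jun: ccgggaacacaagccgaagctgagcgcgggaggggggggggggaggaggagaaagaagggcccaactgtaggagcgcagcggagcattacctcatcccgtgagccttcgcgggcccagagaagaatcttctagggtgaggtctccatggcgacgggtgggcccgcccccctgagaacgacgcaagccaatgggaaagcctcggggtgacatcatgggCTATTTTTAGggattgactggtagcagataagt
Nr4a2: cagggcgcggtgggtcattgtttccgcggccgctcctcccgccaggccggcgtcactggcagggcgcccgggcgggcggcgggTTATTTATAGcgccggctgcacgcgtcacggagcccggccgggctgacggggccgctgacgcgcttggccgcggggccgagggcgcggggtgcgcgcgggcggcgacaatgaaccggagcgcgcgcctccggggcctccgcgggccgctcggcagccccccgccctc

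The half-site occurred once in Fosb and Junb, at 2 places in Fos and Npas4 and at 4 places in Nr4a1. Over both strands, 21 of the 31 genes (67.7%) held it in at least 1 of their windows, against 19.8% of the 27025 genes in the promoter table. The full element TGACGTCA, which contains the half-site on each strand, was found in Btg2, Dusp1, Maff, Plk2 and Scg2, which is 5 of 31 (16.1%) against 1.77% of all genes. A MEF2 site was found in Atf3, Inhba, Jun, Klf2 and Nr4a2, again 5 of 31 (16.1%), against 3.42% of all genes. The CArG box, which binds serum response factor, was found in Dusp5 and Egr2 (6.45% against 1.62%). The AP-1 site TGACTCA was found in 0 of 31, against 5.16% of all genes. These shares describe letters in the windows and were not matched for base composition. Sites beyond the windows, and promoters of the members without an entry, were not read. None of the 5 genes with a MEF2 site passed an edgeR adjusted p of 0.05 between knockdown and scramble. Their log2 fold changes lay between -0.28 for Nr4a2 and 0.28 for Atf3. Nr4a2 had an unadjusted edgeR p of 0.035. Mef2c itself did not pass either, and whether MEF2 factors act at these sites was not tested.

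At baseline the set spanned a wide range of levels. Per kilobase of the longest annotated transcript, the highest in scramble libraries was Vgf, a granule peptide precursor, at 90.6 ± 8.20 CPM per kb (SD, n = 5). Plk2, a kinase that weakens synapses after strong activity, followed at 76.4 ± 5.17 CPM per kb (SD, n = 5). Arc at 59.6 ± 12.9 and Scg2 at 59.5 ± 3.15 CPM per kb (SD, n = 5) did not differ beyond their spread, and Egr1 at 45.0 ± 13.9 CPM per kb (SD, n = 5) overlapped both within its SD. Fos was much lower, at 8.03 ± 1.72 CPM per kb (SD, n = 5), as were Npas4 at 3.76 ± 0.798 and Fosb at 3.02 ± 0.875 CPM per kb (SD, n = 5). The lowest were Atf3 at 0.658 ± 0.240 and Maff at 0.598 ± 0.107 CPM per kb (SD, n = 5), with raw counts of 5 to 54 and of 14 to 92 per library.

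Between knockdown and scramble, 4 of the 40 genes passed an edgeR adjusted p of 0.05. The AP-1 gene Fosl2 and the synaptic scaffold gene Homer1 were lower in knockdown libraries, and the AP-1 gene Jund and the small Maf factor Maff were higher. That is 10% of the set, while 12.3% of all 14393 genes tested passed, 4.66% as higher and 7.61% as lower, so the share called in the set was near the background. At an unadjusted p of 0.05, 6 of the 40 and 4327 of the 14393 genes tested lay below, a smaller share in the set than over all genes. Log2 fold changes were positive for 18 and negative for 22 of the 40, with a median of -0.02. Over all genes tested 7597 were positive and 6796 negative, with a median of 0.02. The groups did not overlap in Fosl2, Maff and Gadd45g, 3 of 40 (7.5%), against 9.34% of all genes tested (6.04% with the knockdown group lower and 3.3% with it higher). Gadd45g was also called higher by the DESeq2 Wald test, which called 8.11% of all genes higher and 9.64% lower, and by limma-voom, which called 10.9% higher and 12.7% lower. Both tools also called Fosl2, Homer1, Jund and Maff in the directions above.

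**Figure D1:**
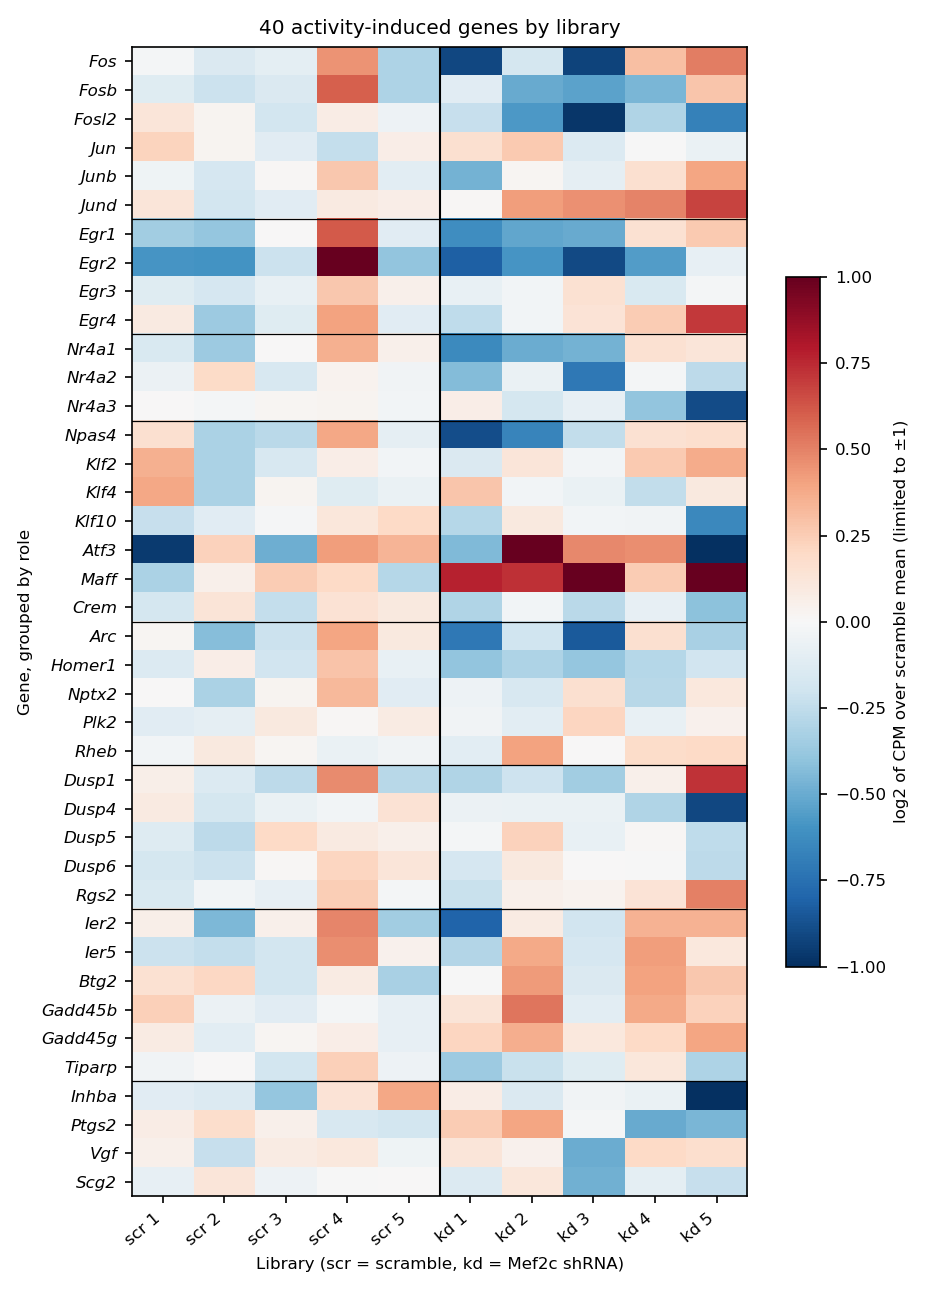
Level of each of the 40 genes (rows, grouped by role with lines between roles) in each of the 10 libraries (columns), as log2 of CPM over the mean of the 5 scramble libraries, with colours limited to 1 in either direction. Most rows show no step at the vertical line between groups, while columns such as scramble 4 and the library labelled knockdown 5 (kd 5) stand out across many rows.

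The AP-1 complex pairs a FOS protein with a JUN protein on DNA. Of its 6 subunit genes, 1 fell, 1 rose and 4 did not pass. Fosl2 encodes Fra-2, a FOS subunit made more slowly and steadily than Fos (chromosome 5, 32135801 to 32157842, plus strand, GRCm38, ENSMUSG00000029135). It stood at 67.8, 63.6, 54.8, 65.6 and 60.2 CPM in scramble libraries 1 to 5 and at 53.3, 42.0, 31.9, 50.6 and 39.1 CPM in knockdown libraries 1 to 5. Every knockdown library lay below every scramble library, and the library labelled knockdown 5 was the second lowest of the 10. Fosl2 fell from 62.4 ± 5.06 to 43.4 ± 8.71 CPM (SD, n = 5), a log2 fold change of -0.52 (SE 0.12, edgeR adjusted p = 0.0176). In tissue of mixed cells, fewer cells of a type and less RNA per cell cannot be told apart. Fosl2 did not pass without scramble library 2 (-0.52, edgeR adjusted p = 0.0545), without knockdown library 2 (-0.51, edgeR adjusted p = 0.0506), or with the offsets for length and GC given further on (-0.38, edgeR adjusted p = 0.109). Nor did it pass in the fit that adds the microglia score (-0.27, edgeR adjusted p = 0.422), without knockdown libraries 2, 3 and 4 together (-0.44, edgeR adjusted p = 0.167), or without scramble library 4 and the library labelled knockdown 5 together (-0.47, edgeR adjusted p = 0.0671). With the microglia score, and without knockdown libraries 2, 3 and 4, 0 genes of any kind passed.

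Jund encodes the JUN subunit that is present in resting cells (chromosome 8, 70698949 to 70700616, plus strand, GRCm38, ENSMUSG00000071076). It stood at 50.1, 40.5, 42.4, 49.0 and 48.1 CPM in scramble libraries 1 to 5 and at 46.5, 61.4, 63.0, 64.9 and 73.4 CPM in knockdown libraries 1 to 5. Knockdown library 1 lay inside the scramble range and the other 4 above it, with the library labelled knockdown 5 highest. Jund rose from 46.0 ± 4.29 to 61.9 ± 9.76 CPM (SD, n = 5), a log2 fold change of 0.43 (SE 0.11, edgeR adjusted p = 0.0222). Exons of Gm11175 on the opposite strand overlap its exons, and whether the counting used strand is not stated. Jund did not pass without scramble library 2 (0.38, edgeR adjusted p = 0.0721) or 5 (0.45, edgeR adjusted p = 0.0510), or without knockdown library 2 (0.43, edgeR adjusted p = 0.0521) or 4 (0.41, edgeR adjusted p = 0.0511). With the length and GC offsets its log2 fold change was 0.13 (edgeR adjusted p = 0.332). Its log2 fold change was 0.46 with the microglia score (edgeR adjusted p = 0.251) and 0.38 without knockdown libraries 2, 3 and 4 (edgeR adjusted p = 0.259), fits in which 0 genes passed.

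**Figure D2:**
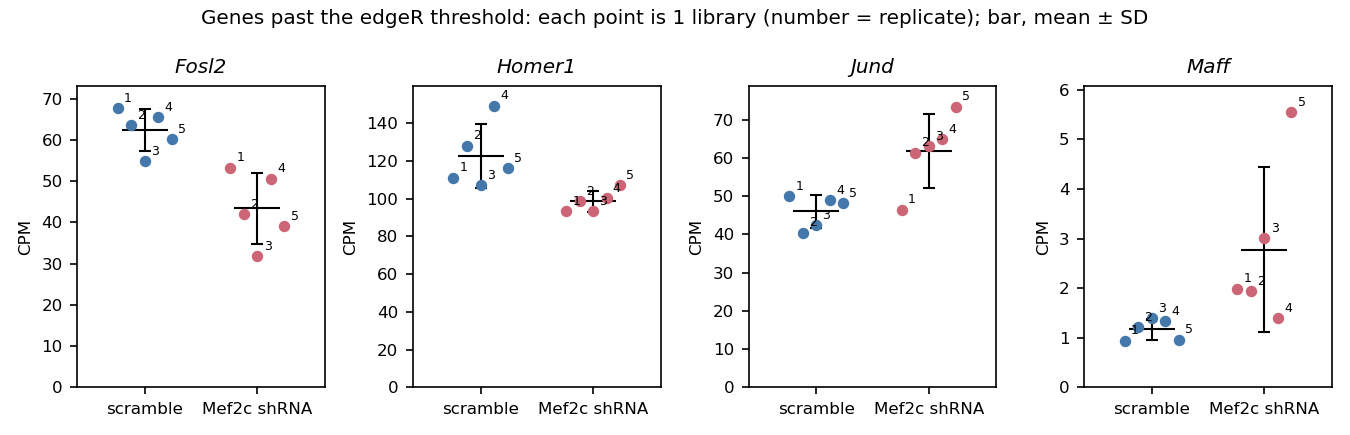
CPM (vertical axes, starting at 0) of the 4 genes past the edgeR threshold in scramble (blue) and Mef2c shRNA (red) libraries, with 1 numbered point per library and a bar at the mean with its SD. The groups are separate for Fosl2 and overlap for Homer1 and Jund. They nearly meet without overlap for Maff, where the library labelled knockdown 5 lies far above the rest at 5.56 CPM.

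Fos, the subunit most used to mark active neurons, stood at 16.7, 15.3, 15.8, 23.1 and 13.7 CPM in scramble libraries 1 to 5 and at 8.99, 15.0, 8.91, 20.9 and 24.1 CPM in knockdown libraries 1 to 5. Knockdown libraries 1 and 3 were the lowest of the 10, the library labelled knockdown 5 was the highest, and the groups overlapped. The log2 fold difference was -0.12 (SE 0.29, edgeR adjusted p = 0.823), and the 95% interval of the fold ran from 0.590 to 1.44. Leaving out 1 library at a time moved the log2 fold change to between -0.33 and 0.03.

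Fosb, whose alternative splice form delta-FosB builds up after repeated activity, stood at 10.5, 9.85, 10.3, 17.3 and 9.21 CPM in scramble and at 10.6, 8.05, 7.90, 8.33 and 13.9 CPM in knockdown libraries 1 to 5. The highest in each group were scramble library 4 and the library labelled knockdown 5, and the log2 fold difference was -0.23 (SE 0.20, edgeR adjusted p = 0.470, 95% interval of the fold 0.632 to 1.15). It was -0.03 without scramble library 4 and -0.39 without the library labelled knockdown 5. Counts per gene do not part the 2 splice forms.

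Junb, a JUN subunit induced with Fos, stood at 75.2, 69.0, 78.0, 93.3 and 71.8 CPM in scramble and at 55.9, 78.4, 72.9, 86.6 and 102 CPM in knockdown libraries 1 to 5. Knockdown libraries held both the lowest and the highest value, with a log2 fold change of 0.03 (SE 0.14, edgeR adjusted p = 0.904, 95% interval of the fold 0.829 to 1.26), which was -0.07 without the library labelled knockdown 5 and 0.13 without knockdown library 1. Jun, which also answers to stress kinases, lay between 95.9 and 132 CPM in scramble and between 103 and 136 CPM in knockdown libraries (log2 fold change 0.05, SE 0.09, edgeR adjusted p = 0.758). Exons of Prdx2, which is in the count tables, overlap those of Junb on the opposite strand, and exons of Junos overlap those of Jun.

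**Figure D3:**
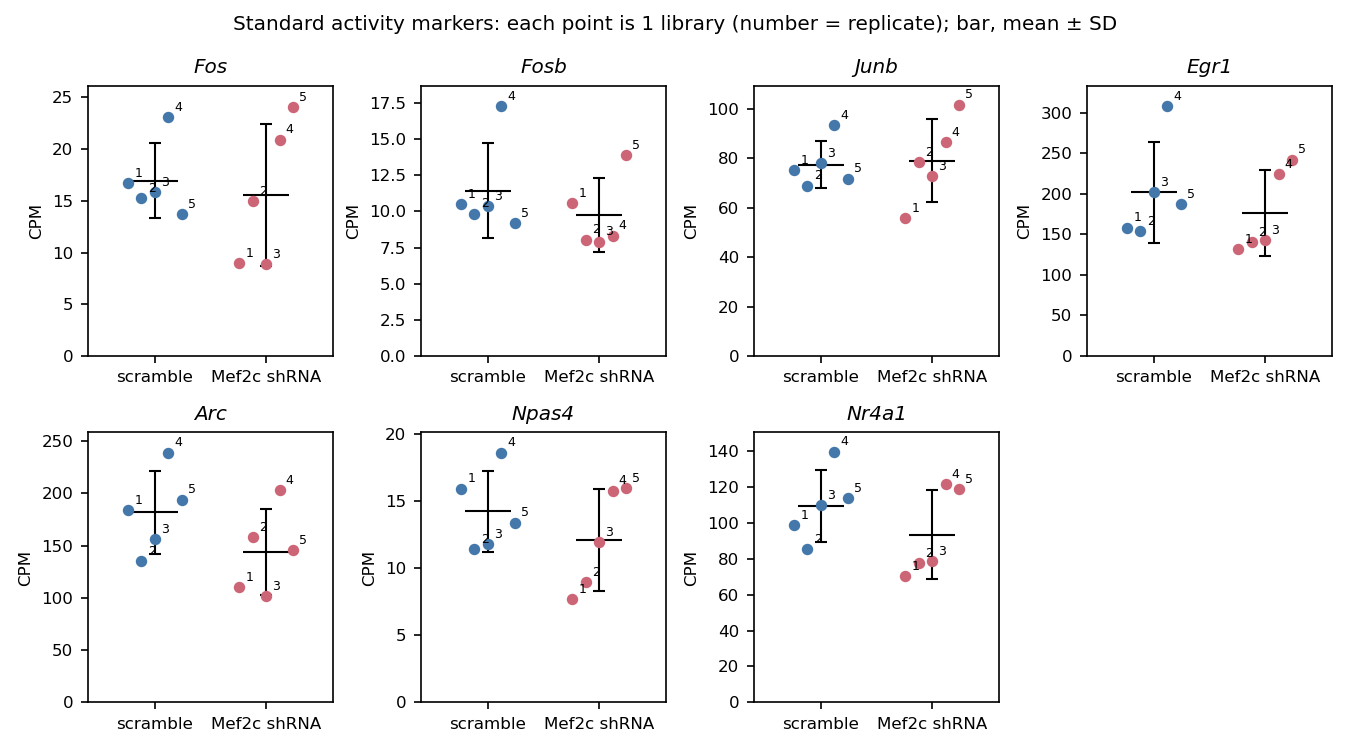
CPM (vertical axes, starting at 0) of 7 standard activity markers in scramble (blue) and Mef2c shRNA (red) libraries, with 1 numbered point per library and a bar at the mean with its SD. The groups overlap in each panel, and scramble library 4 is the highest scramble library in all 7.

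The EGR factors are zinc finger proteins induced by the ERK pathway. None of the 4 passed the edgeR test, at an adjusted or an unadjusted p of 0.05. Egr1, the most used of them as an activity marker, stood at 158, 154, 202, 308 and 187 CPM in scramble and at 131, 140.3, 142, 224 and 242 CPM in knockdown libraries 1 to 5. Scramble library 4 was the highest, and knockdown libraries 1 to 3 lay below every scramble library while number 4 and the library labelled knockdown 5 lay above all scramble libraries but number 4. The log2 fold difference was -0.20 (SE 0.25, edgeR adjusted p = 0.646, 95% interval of the fold 0.591 to 1.29). Without scramble library 4 it was 0.01 (edgeR adjusted p = 0.987), and without the library labelled knockdown 5 it was -0.33.

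Egr2, which also directs myelination in peripheral nerve, had the most negative estimate of the set, -0.56 on the log2 scale (SE 0.31, edgeR adjusted p = 0.255). It stood at 4.51, 4.48, 5.83, 13.9 and 5.16 CPM in scramble and at 3.85, 4.50, 3.64, 4.60 and 6.40 CPM in knockdown libraries 1 to 5. The estimate rests on scramble library 4, without which it was -0.12 (edgeR adjusted p = 0.747). Egr3, which acts downstream of Egr1 in many neurons, was steadier, at 122 to 165 CPM in scramble and 123 to 152 CPM in knockdown libraries (log2 fold change -0.02, SE 0.08). Egr4 ranged from 30.1 to 51.2 CPM in scramble and from 32.5 to 63.3 CPM in knockdown libraries (0.20, SE 0.18), the highest being the library labelled knockdown 5.

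The NR4A genes encode orphan nuclear receptors that need no ligand. All 3 had negative estimates and none passed. Nr4a1 stood at 98.6, 85.2, 109.9, 139.6 and 114 CPM in scramble and at 70.2, 77.5, 78.8, 122 and 119 CPM in knockdown libraries 1 to 5. Knockdown libraries 1 to 3 lay below every scramble library, and number 4 and the library labelled knockdown 5 lay above all scramble libraries but number 4. Its log2 fold difference was -0.23 (SE 0.19, edgeR adjusted p = 0.448, 95% interval of the fold 0.642 to 1.14). It was -0.12 without scramble library 4 and -0.14 without knockdown library 1. Nr4a2, known for its part in dopamine neurons, had -0.28 (SE 0.12, edgeR adjusted p = 0.133) and lay between 50.1 and 63.8 CPM in scramble and between 34.1 and 55.2 CPM in knockdown libraries. Nr4a3 was nearly constant in scramble libraries, at 114 to 118 CPM. Its values in knockdown libraries 1 to 5 were 122, 103, 109, 88.3 and 62.5 CPM, so the spread was much wider there and the library labelled knockdown 5 was the lowest of the 10 (log2 fold change -0.26, SE 0.14, edgeR adjusted p = 0.232). Without that library the log2 fold change was -0.13.

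Among the other transcription factors, Maff rose and the remaining 6 did not pass. Npas4, which is induced by calcium entry alone and organises inhibitory synapses, stood at 15.9, 11.4, 11.8, 18.6 and 13.4 CPM in scramble and at 7.71, 8.99, 11.98, 15.8 and 16.0 CPM in knockdown libraries 1 to 5. Knockdown libraries 1 and 2 were the lowest of the 10 and scramble library 4 the highest. The log2 fold difference was -0.24 (SE 0.21, edgeR adjusted p = 0.489, 95% interval of the fold 0.618 to 1.17). It was -0.11 without knockdown library 1, -0.12 without scramble library 4, -0.14 without knockdown library 2 and -0.35 without the library labelled knockdown 5.

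Maff encodes a small Maf protein that lacks an activation domain and pairs with other bZIP factors (chromosome 15, 79346621 to 79359076, plus strand, GRCm38, ENSMUSG00000042622). It stood at 0.942, 1.21, 1.39, 1.34 and 0.962 CPM in scramble and at 1.99, 1.94, 3.01, 1.40 and 5.56 CPM in knockdown libraries 1 to 5. The lowest knockdown library lay just above the highest scramble library, and the library labelled knockdown 5 held 92 counts of Maff against 24 to 48 in the other 4 knockdown libraries. Maff rose from 1.17 ± 0.210 to 2.78 ± 1.66 CPM (SD, n = 5), a log2 fold change of 1.24 (SE 0.35, edgeR adjusted p = 0.0363). The call was lost without scramble library 1 (1.17, edgeR adjusted p = 0.0801), 2 (1.25, 0.0875), 4 (1.29, 0.0722) or 5 (1.18, 0.0932), and without knockdown library 2 (1.35, 0.0514), 3 (1.20, 0.0666) or the one labelled 5 (0.83, 0.0626), and with the length and GC offsets (1.04, edgeR adjusted p = 0.127). It was also lost with the replicate number as a block (1.11, edgeR adjusted p = 0.0621), without scramble library 4 and the library labelled knockdown 5 together (0.88, edgeR adjusted p = 0.0951), and without knockdown libraries 2, 3 and 4 together (1.68, edgeR adjusted p = 0.104). In the last of these fits 0 genes passed. Microglia markers, of which 6 of 11 rose (summed level 372 to 534 CPM in scramble and 454 to 930.5 CPM in knockdown libraries, none at 0), had scores of -0.02, 0.57, 0.84, 0.48 and -0.16 log2 units in knockdown libraries 1 to 5 and of -0.44, -0.42, 0.06, -0.49 and -0.42 in scramble libraries 1 to 5. Of 8 endothelial markers 3 rose and 0 fell by the edgeR test, while the median log2 fold change of the 8 was -0.0030. With the length and GC offsets 1 of the 11 microglia and 1 of the 8 endothelial markers passed the edgeR test. With the microglia score as a covariate Maff had a log2 fold change of 1.64 (SE 0.45, edgeR adjusted p = 0.197), in a fit where 0 genes passed the edgeR test and 2228 of all genes, 5 of them members, had an unadjusted p below 0.05. The part of endothelial cells was not tested.

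Atf3, a bZIP factor of injured neurons, was at 0.673 to 1.74 CPM in scramble and 0.302 to 3.00 CPM in knockdown libraries, a 9.93-fold range over the 10 (log2 fold change 0.28, SE 0.46). Klf2 (0.13, SE 0.14) and Klf4 (0.02, SE 0.16), zinc finger factors that are also prominent in vessel endothelium, and Klf10 (-0.16, SE 0.13) stayed within overlapping ranges. Crem, whose internal promoter makes the repressor ICER, lay between 10.3 and 13.5 CPM in scramble and between 9.18 and 11.99 CPM in knockdown libraries (-0.21, SE 0.12, edgeR adjusted p = 0.253). Counts per gene do not part ICER from the longer Crem products.

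Of the 5 genes whose products act at synapses, Homer1 fell and 4 did not pass. Homer1 (chromosome 13, 93299635 to 93405129, plus strand, GRCm38, ENSMUSG00000007617) makes long scaffold proteins that tie group I metabotropic glutamate receptors to the postsynaptic density, and a short activity-induced form, Homer1a, that uncouples them. The counts do not part these forms. Homer1 stood at 111, 128, 107, 149 and 116 CPM in scramble and at 93.3, 98.5, 93.4, 100.3 and 107 CPM in knockdown libraries 1 to 5. The library labelled knockdown 5 lay just above the lowest scramble library and the other 4 below all of them. Homer1 fell from 122 ± 17.0 to 98.5 ± 5.73 CPM (SD, n = 5), a log2 fold change of -0.31 (SE 0.09, edgeR adjusted p = 0.0325). It did not pass without scramble library 2 (-0.29, edgeR adjusted p = 0.0880), 4 (-0.23, 0.0744) or 5 (-0.33, 0.0617), or without knockdown library 2 (-0.31, 0.0743), 3 (-0.30, 0.0641) or 4 (-0.32, 0.0593). Its log2 fold change was -0.10 with the length and GC offsets (edgeR adjusted p = 0.555), -0.17 with the microglia score (edgeR adjusted p = 0.495) and -0.29 without knockdown libraries 2, 3 and 4 (edgeR adjusted p = 0.270). With the microglia score, and without those 3 libraries, 0 genes passed.

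Arc encodes a capsid-like protein that promotes removal of AMPA receptors from synapses. It stood at 184, 135, 156, 239 and 194 CPM in scramble and at 111, 158, 101, 203 and 146 CPM in knockdown libraries 1 to 5. Knockdown libraries 1 and 3 were the lowest of the 10 and scramble library 4 the highest, and the other 3 knockdown libraries fell inside the scramble range. The log2 fold difference was -0.34 (SE 0.21, edgeR adjusted p = 0.314, 95% interval of the fold 0.570 to 1.10), larger in size than that of Homer1 but with a wider error. It was -0.22 without scramble library 4. Nptx2, a secreted pentraxin that clusters AMPA receptors, lay between 24.3 and 37.8 CPM in scramble and between 24.9 and 33.8 CPM in knockdown libraries (-0.04, SE 0.12). Plk2 had a 1.25-fold range over the 10 libraries, the smallest of the 40 (0.01, SE 0.07, 95% interval of the fold 0.906 to 1.12). Rheb, the GTPase that activates mTORC1, had 0.15 (SE 0.08, edgeR adjusted p = 0.258).

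The signalling brakes hold 4 dual-specificity phosphatases, which switch MAP kinases off, and Rgs2, which speeds the turn-off of G proteins. None of the 5 passed the edgeR test, at an adjusted or an unadjusted p of 0.05. Dusp1 ranged from 17.9 to 30.2 CPM in scramble and from 17.1 to 35.9 CPM in knockdown libraries, highest in scramble library 4 and in the library labelled knockdown 5 (log2 fold change 0.04, SE 0.22). Rgs2 was highest in those same 2 libraries, at 34.2 and 40.8 CPM (0.12, SE 0.12). Dusp4 ran the other way in the library labelled knockdown 5, with 17.3 CPM against 26.5 to 36.2 CPM elsewhere (-0.25, SE 0.14, edgeR adjusted p = 0.260, and -0.12 without that library). Dusp5 (-0.01, SE 0.10) and Dusp6 (-0.06, SE 0.09), the latter a feedback inhibitor specific to ERK, had overlapping groups.

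None of the 6 growth and stress regulators passed the edgeR test at an adjusted p of 0.05, and Gadd45g had an unadjusted p below 0.05. Gadd45g, a stress sensor linked to DNA demethylation, stood at 18.4, 16.2, 17.6, 18.2 and 16.4 CPM in scramble and at 20.1, 22.4, 18.7, 19.9 and 22.8 CPM in knockdown libraries 1 to 5. The groups did not overlap, with a log2 fold change of 0.26 (SE 0.08) and an edgeR adjusted p of 0.0572. With the length and GC offsets the log2 fold difference was -0.01. Its relative Gadd45b had 0.25 (SE 0.12, edgeR adjusted p = 0.186), and Btg2, an antiproliferative gene, had 0.21 (SE 0.13). Ier2 had 0.02 (SE 0.23) and Ier5 0.12 (SE 0.17), with Ier5 at 75.0 CPM in scramble library 4 against 46.2 to 56.2 CPM in the other scramble libraries. Tiparp, an ADP-ribosyltransferase, had -0.17 (SE 0.11).

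Of the secreted products and enzymes, 0 of 4 passed the edgeR test, at an adjusted or an unadjusted p of 0.05. Vgf lay between 219 and 276 CPM in scramble and between 182 and 295 CPM in knockdown libraries (log2 fold change 0.03, SE 0.12). Scg2, a granin of dense-core vesicles, had -0.15 (SE 0.09, edgeR adjusted p = 0.265). Ptgs2, the inducible cyclooxygenase, ranged from 22.2 to 28.5 CPM in scramble and from 17.8 to 33.1 CPM in knockdown libraries (-0.02, SE 0.17). Inhba, the activin subunit, was at 3.14 CPM in the library labelled knockdown 5 and between 6.76 and 11.6 CPM in the other 9 (-0.24, SE 0.25).

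The members varied more between libraries of one group than most genes did. Among the 38 with at least 5 CPM on average, the median SD of log2 CPM within groups was 0.228, beside 0.144 over the 11683 genes tested at that level. Of these 38, 36 lay above the median of all genes and 13 above their 90th percentile of 0.286. Scramble library 4 was the highest scramble library for 22 of the 40 members (55%), while it was the highest for 18.8% of all genes tested, and this held for all 7 standard markers (Fos, Fosb, Junb, Egr1, Arc, Npas4 and Nr4a1). The library labelled knockdown 5 was the highest knockdown library for 5 of those 7 and number 4 for the other 2, and knockdown libraries 1 and 3 were the lowest for 4 and 3 of them. Over all genes tested, the library labelled knockdown 5 was the highest of its group for 29.6%, near its 35% of the 40 members. Knockdown libraries 1 and 3 were each the lowest for 32.5% of the members, against 24.2% and 17.8% of all genes.

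The mean log2 CPM of the 7 standard markers, each centred over the 10 libraries, was 0.06, -0.15, 0.03, 0.57 and 0.02 in scramble libraries 1 to 5 and -0.48, -0.23, -0.38, 0.22 and 0.33 in knockdown libraries 1 to 5. Scramble library 4, knockdown library 4 and the library labelled knockdown 5 stood above all others. The same mean over 8 cortical layer neuron markers, none of which was at 0 in any library, was 0.80 in the library labelled knockdown 5, 0.45 in scramble library 4 and 0.13 in knockdown library 4. It lay between -0.44 and 0.03 in the other 7. Single markers differed: Rorb, Cux2, Lamp5, Foxp2 and Rspo1 were highest of their group in scramble library 4 and the library labelled knockdown 5. Fezf2 (33.8 CPM) and Scnn1a (9.51 CPM) were instead lowest of the scramble libraries in number 4. Tle4 was lowest of all libraries in the library labelled knockdown 5, at 54.0 CPM. The summed level of these cortical markers ran from 206 to 281 CPM in scramble and from 179 to 342 CPM in knockdown libraries. With the cortical score as a covariate, 19.1% of all genes passed the edgeR test, 8.21% as higher and 10.9% as lower, and none of the 7 standard markers did. Their log2 fold changes there ranged from -0.31 for Arc to 0.06 for Junb. In that fit Nr4a3 (-0.33, edgeR adjusted p = 0.0160) and Dusp4 (-0.32, edgeR adjusted p = 0.0217) were lower and Gadd45g (0.27, edgeR adjusted p = 0.0377) was higher, besides the 4 genes called without it. Dentate granule cell markers ran from 406 to 523 CPM in sum in scramble and from 328 to 597 CPM in knockdown libraries. Of these, 0 of 6 passed the edgeR test. Scores of other cell types also set the library labelled knockdown 5 apart. It was the highest of the 10 for interneurons (0.35) and the lowest for dentate granule cells (-0.43), astrocytes (-0.46) and oligodendrocytes (-0.38). CA3 scores were lowest in knockdown library 4 (-0.34) and the library labelled knockdown 5 (-0.27). The part of tissue make-up in the activity marker levels was not tested.

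Median fold changes fell from the shortest to the longest transcripts, both in the set and over all genes. The 8 members with transcripts under 2 kb all had positive log2 fold changes, as did 2286 of the 2726 genes tested of that length. Their median was 0.26, beside 0.20 for those genes. The 24 members of 2 to 4 kb had a median of -0.05 beside 0.06 for 5928 genes. In that class 62.5% of the members were negative, against 35.1% of the genes. Of the 8 members of 4 kb or more, 7 (87.5%) were negative, against 74.5% of 5727 genes. Their median was -0.22, beside -0.13 for those genes. The 2 members called higher, Jund at 1.67 kb and Maff at 1.96 kb, are in the shortest class, and the 2 called lower, Homer1 at 5.71 kb and Fosl2 at 6.54 kb, are in the longest.

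**Figure D4:**
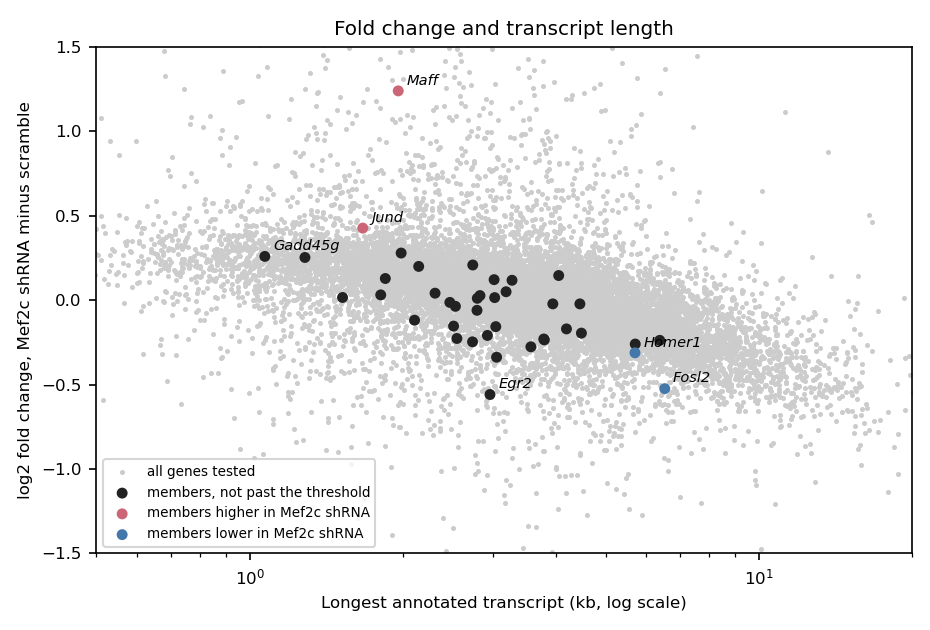
Log2 fold change of knockdown against scramble (vertical axis, drawn from -1.5 to 1.5, so that genes beyond are not shown) against the longest annotated transcript in kb (log axis, 0.5 to 20) for all genes tested (grey) and the 40 members (large points). Members with short transcripts lie above 0, and the 2 called lower, Homer1 and Fosl2, lie among the longest members.

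With offsets that remove each library's trend along transcript length and GC content, 0 of the 40 members passed the edgeR test and 7 had an unadjusted p below 0.05, while 1.65% of all genes passed (0.695% higher and 0.959% lower) and 2527 of 14393 had an unadjusted p below 0.05. The smallest adjusted p among the members were 0.109 for Fosl2 and 0.127 for Maff in edgeR. Log2 fold changes were then negative for 31 of the 40, with a median of -0.11, beside 0.0046 over all genes tested. Among the standard markers they were -0.26 for Fos, -0.29 for Fosb, -0.21 for Junb, -0.20 for Egr1, -0.46 for Arc, -0.29 for Npas4 and -0.37 for Nr4a1. The lowest edgeR adjusted p among these 7 was 0.287, for Arc. With the microglia score as a covariate instead, the log2 fold changes were 0.27 for Fos, 0.25 for Fosb, 0.11 for Junb and 0.05 for Egr1. Arc had -0.24, Nr4a1 -0.08 and Npas4 -0.05 in that fit, in which 0 genes passed the edgeR test. The members have a median GC content of 53.5% in their longest transcript, against 49.9% for all genes tested, and a median length of 2.88 kb against 3.48 kb.

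**Figure D5:**
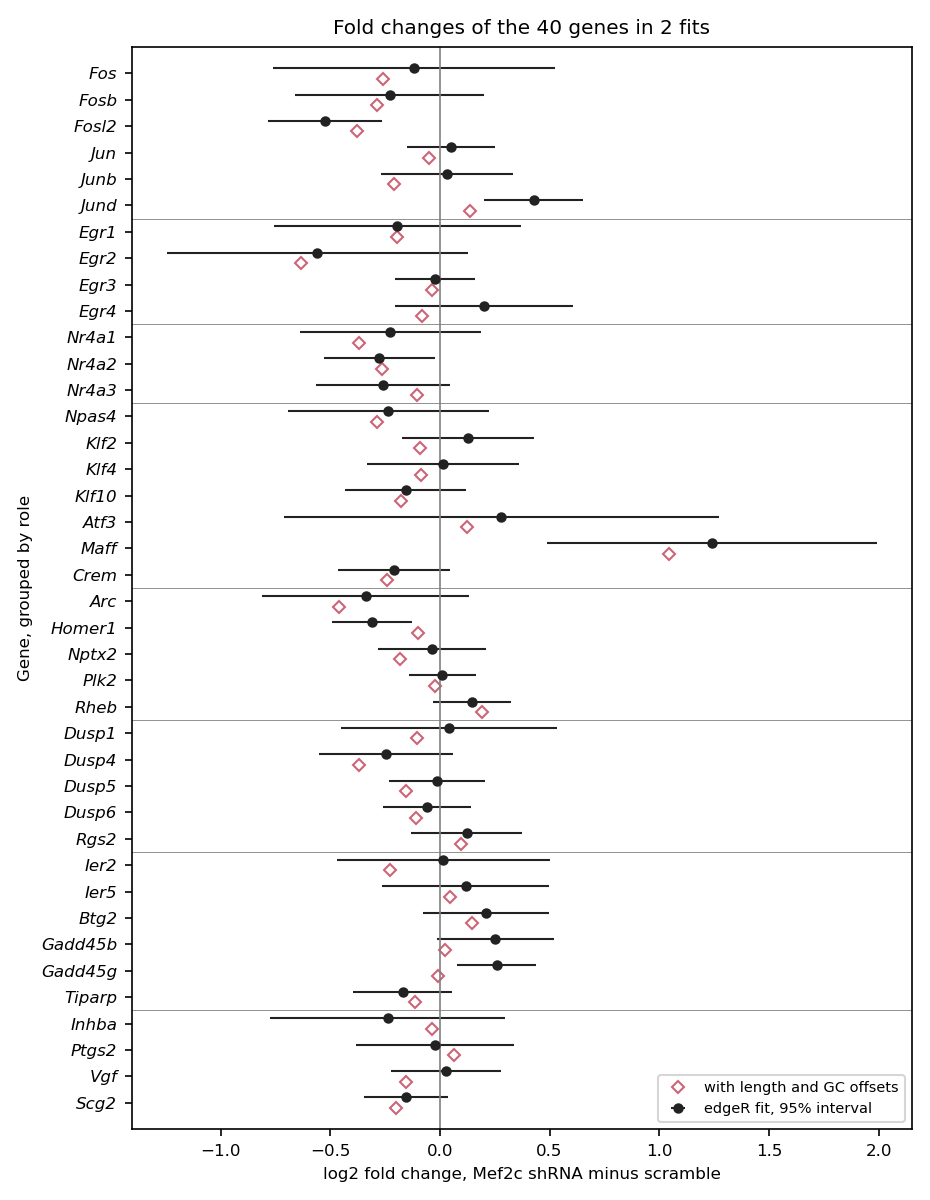
Log2 fold change of knockdown minus scramble for each of the 40 genes (rows, grouped by role) in the edgeR fit (filled circles with 95% intervals) and in the fit with offsets for transcript length and GC content (open diamonds). The intervals of Fosl2, Homer1, Jund, Maff, Nr4a2 and Gadd45g leave out 0 in the first fit, and most diamonds lie to the left of 0.

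The genes that carry the signal from the synapse to these promoters were described from lists of known components. Over all genes tested, 7.61% were called lower and 4.66% higher. Of 5 genes for calcium entry, 4 were lower and 0 higher. All 5 have transcripts of 4 kb or more, a class where 994 of 5727 genes were called lower and 54 higher. Grin2b, an NMDA receptor subunit, fell from 731 ± 44.9 to 437 ± 78.9 CPM (SD, n = 5, log2 fold change -0.74, edgeR adjusted p = 0.00118), and Cacna1d (-0.31), Cacna1c (-0.44) and Grin2a (-0.24) fell as well, while Grin1 had 0.07. With the length and GC offsets 0 of the 5 passed the edgeR test, Grin2b had -0.17, and Cacna1d (0.01) and Grin2a (0.23) changed sign. Of 15 calmodulin, kinase and phosphatase genes, Camkk1 (0.24) rose and Camk4 (-0.36), the nuclear kinase that phosphorylates CREB, fell. Of 12 genes of the ERK cascade 3 rose and 3 fell, among them the kinase genes Mapk3 (0.31), Braf (-0.27) and Rps6ka3 (-0.33). With the offsets 0 of either list passed the edgeR test. Camk4 then had -0.40 (edgeR adjusted p = 0.0867), Camkk1 0.18, Mapk3 0.11, Rps6ka3 -0.06 and Braf 0.09.

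Of 15 inducing transcription factors and coactivators, the histone acetyltransferase gene Ep300 fell (log2 fold change -0.36, edgeR adjusted p = 0.0147). Creb1 (-0.19), Srf (-0.10), Mef2a (-0.10) and Mef2d (-0.14) did not pass. With the offsets Ep300 had -0.06, and Crtc1, a CREB coactivator, was the gene of the list that passed (0.38, edgeR adjusted p = 0.0243, from 0.10 without them). Of 25 further activity-induced genes, Cdkn1a (1.49, edgeR adjusted p = 0.00670) rose and Sorcs3 (-0.32, edgeR adjusted p = 0.0418) fell. Cdkn1a, the cell cycle inhibitor p21, also passed with the offsets (1.32, edgeR adjusted p = 0.0294), and Sorcs3 did not (-0.19). Bdnf, the neurotrophin, stood at 50.5 ± 2.68 and 47.7 ± 8.06 CPM (SD, n = 5) and did not pass (-0.08). Pcsk1, the prohormone convertase, had -0.71 (edgeR adjusted p = 0.0673) and Pim1, a kinase, 0.97 (edgeR adjusted p = 0.0640), and neither passed.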

How the data were processed

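RNA-seq counts of 10 CA3 libraries, 5 scramble and 5 knockdown by their titles, were used. The authors deposited raw counts for each gene, and the submitters' processing notes name HISAT2, featureCounts and mm10. The sources used here do not give versions, settings, strand or annotation. Of 18453 Ensembl identifiers 18445 matched GENCODE M21 (GRCm38). After filterByExpr and TMM scaling, edgeR 4.0.16 in R 4.3.3 gave the robust quasi-likelihood test, with p-values adjusted after Benjamini and Hochberg over all 14393 genes tested. SEs are the log2 fold change over the square root of F, and 95% intervals use the fit's degrees of freedom. Levels per kb use the longest GENCODE transcript. The offsets were fitted per library to deviations of log2 CPM (prior count 2), as natural splines (5 degrees of freedom each) in GC content and log2 length. Alternatives used DESeq2 1.42.0 and limma 3.58.1 as well. The code was tested on simulated data. Libraries of a group differed beyond counting noise (chi-square over its degrees of freedom 3.74 to 37.4), so none was a duplicate. Totals of 14701928 to 17798090 leave counting error small for all but the lowest genes. Of the 40 genes, 7 have exons that overlap another gene on the opposite strand.

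The members, lists and alternatives were chosen with earlier results of these data known. Values by library are given for every called member and for Fos, Fosb, Junb, Egr1, Arc, Npas4 and Nr4a1, and other genes of the signalling lists are named where called, up to 4 a list, with Mef2c. Grin1, Creb1, Srf, Mef2a, Mef2d, Crtc1, Bdnf, Pcsk1 and Pim1, the values by library of Egr2, Nr4a3 and Gadd45g, and the half-site motif were chosen after values were seen. One gene that this rule names is not reported here.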

Additional observations from a re-analysis of the deposited data

Results flagged for a closer look

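In each group of 5 libraries, the highest or lowest library was compared with its nearest neighbour, and 7 of 82 groups (40 members and Mef2c, in each treatment) had a gap of more than 0.71 of the group's range. Chance alone marks about 1 in 20 such groups. Scramble library 4 stood apart in 3 genes: Fosb at 17.3 CPM, next to 10.5 CPM in the nearest scramble library, Egr2 at 13.9 CPM, next to 5.83 CPM, and Mef2c at 312 CPM, next to 198 CPM. The library labelled knockdown 5 stood apart in Dusp1, at 35.9 CPM next to 22.5 CPM, and in Inhba, at 3.14 CPM next to 7.99 CPM. Scramble library 1 did so in Gadd45b, at 14.3 CPM next to 11.99 CPM, and knockdown library 3 in Vgf, at 182 CPM next to 264 CPM.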

How the results depend on the processing

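The fits with DESeq2 size factors, 2 other filters and thinned counts called the same 4 members as the fit reported. Upper quartile factors, the DESeq2 Wald test, limma-voom and the dentate granule score also called Gadd45g higher, and the last of these Dusp4 lower. Against 1766 genes called in all, limma-voom called 3393, and edgeR called 2756 with the cortical score as a covariate, 238 with the length and GC offsets, 1029 without scramble 4 and the library labelled knockdown 5, and 0 with the microglia score or without knockdown 2, 3 and 4. The 2 edgeR fits with 0 calls had 2228 and 2590 genes at an unadjusted p under 0.05, 5 and 11 of them members. The 2 members called higher became 1 (Jund) without scramble 4 and the library labelled knockdown 5, and 0 with the offsets, with the microglia score or without knockdown 2, 3 and 4. The 2 called lower became 4 with the cortical score, 1 (Homer1) without scramble 4 and the library labelled knockdown 5, and 0 in the same 3 fits. Mean microglia scores were -0.34 (scramble) and 0.34 (knockdown). Leaving out 1 library gave 631 to 3305 genes, 0 to 3 members higher and 0 to 2 lower; without scramble 2 or knockdown 2 no member was called, with 5 and 7 at an unadjusted p under 0.05 in edgeR. With the replicate number as a block, 1313 genes, 1 member higher (Jund) and 2 lower passed, and with block and offsets together 205, 0 and 2 (Fosl2 and Nr4a1). The labels do not say whether same-numbered libraries are pairs. Correlations of same-numbered deviations were 0.24, 0.18, 0.40, -0.11 and 0.08, which do not settle it. The block took the SE of Arc from 0.21 to 0.13, of Egr1 from 0.25 to 0.12 and of Nr4a1 from 0.19 to 0.09. That of Fosb stayed at 0.20. With the block alone, Arc (-0.36) and Nr4a1 (-0.25) each had an unadjusted edgeR p of 0.018 and did not pass. Cacna1d (0.0136 with the offsets, 0.0137 with block and offsets), Grin2a (0.226, 0.223) and Braf (0.0863, 0.085) changed sign. Where no cause is named, the cause was not tested. Depth limits Maff and Atf3 most.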
